A study of Rattus norvegicus with 2 samples.

Results

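The 5 intermediate filament genes Gfap, Vim, Nes, Synm and Des were followed through cells cultured from the rat optic nerve. They were taken by symbol from the 25399 genes of the deposited tables, and each symbol was listed once. Their Ensembl identifiers in the files are ENSRNOG00000002919 for Gfap, ENSRNOG00000018087 for Vim, ENSRNOG00000018681 for Nes, ENSRNOG00000014030 for Synm and ENSRNOG00000019810 for Des.

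Intermediate filaments are rope-like protein fibres that give a cell mechanical strength and carry no motor traffic. Gfap encodes glial fibrillary acidic protein, the filament protein by which astrocytes are usually recognised, and Vim encodes vimentin, which is made by astrocytes, fibroblasts and most other mesenchymal cells. Nes encodes nestin, known from neural progenitors and immature glia, and Synm encodes synemin, a large partner that joins vimentin, desmin or GFAP filaments. Des encodes desmin, the filament protein of muscle. Immature astrocytes are known for vimentin and nestin, and maturing astrocytes for rising GFAP.

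The study made 1 droplet library of cells from the optic nerve of wild-type (WT) Sprague Dawley rats and 1 from Nuc1 rats, which carry a spontaneous insertion mutation in Cryba1, the gene of the lens protein βA3/A1-crystallin. The labels give postnatal day 7 for both. The series calls the cells a mixed culture, and the study's methods describe mixed primary cultures of optic nerve glia. As the mutation is carried in the germ line, an effect within a cell cannot be told apart from one of its surroundings. The number of animals behind a library is not given in the sources used here.

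The WT library held 2107 barcodes and 34517542 unique molecular identifiers (UMIs, each standing for 1 captured transcript), and the Nuc1 library held 1929 barcodes and 35794685 UMIs. Filtering left 1963 cells in WT, at a median depth of 14050 UMIs, and 1782 in Nuc1, at 16577.5 UMIs. Only 2 barcodes occurred in both libraries, and both were kept in each. Cryba1 had 0 UMIs in all barcodes of either library, so the genotype labels could not be checked from it. With 1 library for each genotype no p-value can be given. Levels are UMIs per 1000000 UMIs of the same cells (CPM), a 3′ count that is not divided by gene length. Their intervals are 95% exact Poisson intervals, ratios carry 95% exact conditional intervals, and both cover counting error only, not the spread between animals.

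Cells were grouped into 11 clusters without the 5 genes, which were left out of the clustering. A cluster was named only where at least 3 markers of a list stood among its 10 leading genes. The astrocyte-like cluster, led by Gfap, Hspb1, Fabp7, Mt2A and Cxcl14, held 106 of 1963 WT cells (5.40%) and 345 of 1782 Nuc1 cells (19.4%). Of its 15 listed astrocyte markers, Mt3 was the most abundant at 7031 CPM in WT and 9114 CPM in Nuc1, and Aqp4, the endfoot water channel, stood at 1798 and 1667 CPM. The glutamate transporter gene Slc1a2 was nearly absent at 5.40 and 11.6 CPM, and Gjb6, a connexin of mature astrocytes, was at 0 and 1.25 CPM. Other named clusters were motile-cilia-like (cluster 6, led by Dynlrb2 and Cfap126), oligodendrocyte-lineage-like (cluster 8, led by Bcas1 and Mbp) and macrophage-like (cluster 10, led by Pf4 and Tyrobp). Cluster 9, led by Ttr and Gldn, stayed unnamed. The 6 remaining clusters had over 2000 CPM of Col1a1 with both libraries pooled and are called collagen-rich. Among them cluster 5, led by Ube2c and Top2a, was named dividing, and cell division genes such as Cdkn3 and Kif20a also led cluster 7, after Actg2. This limit was set after the values were seen. Cluster 2 had the lowest Col1a1 inside it, at 4150 CPM in WT and 1998 CPM in Nuc1, and cluster 9 lay just outside at 851 and 1518 CPM.

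Promoter sequence is shown for Gfap and Vim, as the 100 bases before the annotated start on the coding strand. Of the 5 members, Gfap had the largest share of its UMIs in the astrocyte-like cluster, and Vim was found in the most cells (below). The sequences are RefSeq's (build GRCr8), where all 5 genes were found. The Gfap window is chr10:88361662-88361761 on the minus strand and the Vim window is chr17:81577161-81577260 on the plus strand. Capitals mark a TATAAA match, the letters of a classical TATA box.
Gfap: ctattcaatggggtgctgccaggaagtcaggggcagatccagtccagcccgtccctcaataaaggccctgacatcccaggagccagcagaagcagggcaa
Vim: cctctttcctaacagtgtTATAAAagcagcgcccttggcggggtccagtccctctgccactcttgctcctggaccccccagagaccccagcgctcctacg
Motifs were searched on both strands of the 250 bases before the start, and no match in the 5 genes overlapped another. TATAAA was found in Vim alone of the 5 genes, beginning 82 bases before the start, while 12.9% of 33469 promoters hold it. CCAAT was found in Vim and Synm against 34.0% of promoters, and CANNTG, the E-box, in Des against 65.5%. The STAT motif TTCNNNGAA was in none of the 5 and in 7.67% of promoters. A match is only a match of letters, and its absence says nothing of a factor.

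Gfap had the largest share of its UMIs in the astrocyte-like cluster of the 5 members, in both libraries. In WT its level was 6946 CPM (6848 to 7044) in the astrocyte-like cells, from 19311 UMIs. In Nuc1 it was 9693 CPM (9628 to 9759), from 85172 UMIs. The next cluster in both libraries was the motile-cilia-like one, at 1371 CPM in its 15 WT cells and 2598 CPM in its 109 Nuc1 cells. The astrocyte-like cells held 93.8% of all Gfap UMIs in WT and 92.2% in Nuc1. Every WT astrocyte-like cell and 344 of the 345 Nuc1 cells had a Gfap UMI.

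Vim, at 8645 CPM over all WT cells and 10792 CPM over all Nuc1 cells, was found in nearly every cell. It was still highest in the astrocyte-like cluster, at 23880 CPM (23698 to 24062) in WT and 22943 CPM (22843 to 23044) in Nuc1. Gfap and Vim were both highest there in both libraries, as were 3.99% of 6748 genes with at least 1000 UMIs. The motile-cilia-like cells followed with 15609 and 13838 CPM of Vim, and cluster 9 with 10971 and 12016 CPM. The collagen-rich clusters lay between 4914 and 9033 CPM in WT and between 3595 and 8377 CPM in Nuc1. In WT, clusters 1, 4 and 7 followed each other at 9033, 8805 and 8453 CPM, and each overlapped the next in its interval. The lowest Vim was in the oligodendrocyte-lineage-like cells, with 2011 CPM in 52 WT cells and 337 CPM in 10 Nuc1 cells. In WT, 842 of the 1581 Vim UMIs of that cluster came from 1 cell, and without it the level was 1005 CPM. In Nuc1, 25 of the 36 lay in 1 cell, and without it the level was 116 CPM.

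**Figure D1:**
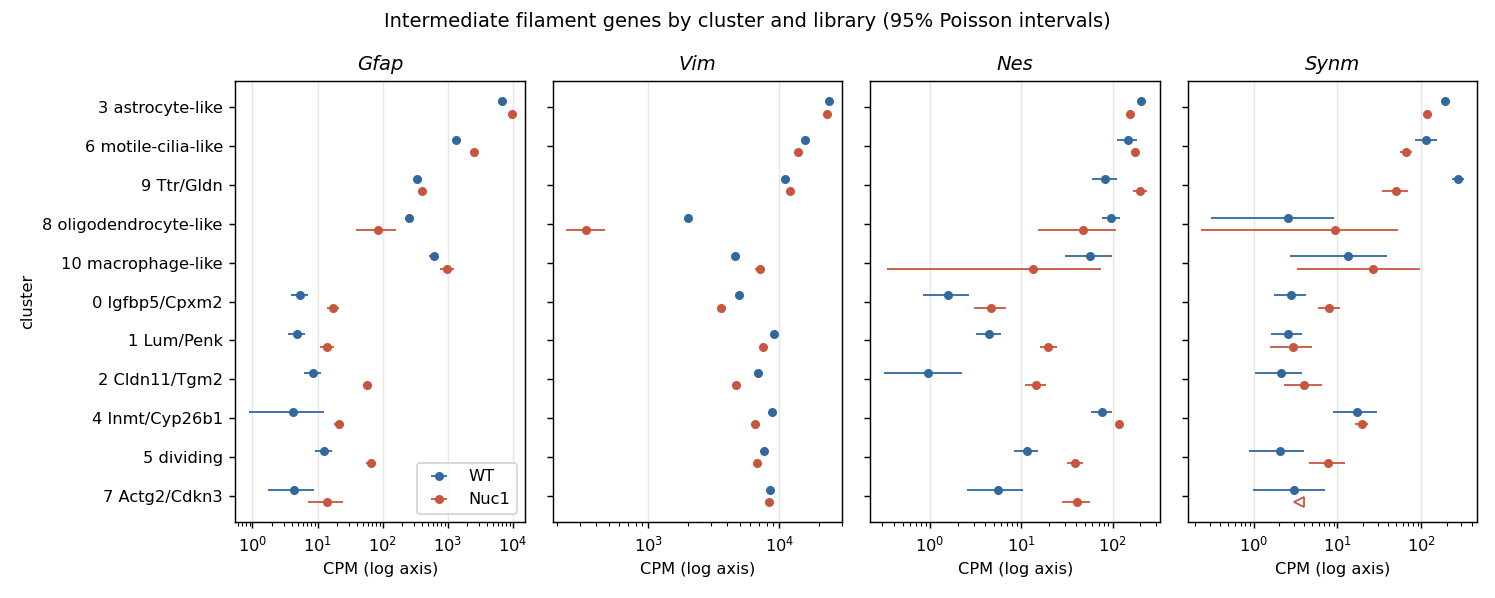
CPM (log axis) of Gfap, Vim, Nes and Synm in each of the 11 clusters, with WT in blue, Nuc1 in red and lines for 95% Poisson intervals; the open triangle stands at the level of 3 UMIs where none was found. Gfap falls from 6946 and 9693 CPM in astrocyte-like cells to below 70 CPM in every collagen-rich cluster, while Vim stays above 3500 CPM there.

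Nes and Synm were scarce beside Gfap and Vim, and their order across clusters differed between the libraries. Nes was highest in the WT astrocyte-like cells at 204 CPM (188 to 222), and the motile-cilia-like cells followed at 145 CPM (111 to 187), just below that interval. In Nuc1, cluster 9 came first at 198 CPM (165 to 236), before the motile-cilia-like cells at 174 CPM (158 to 191) and the astrocyte-like cells at 154 CPM (145 to 162). These Nuc1 neighbours overlapped in their intervals. By the median over single cells, the WT motile-cilia-like cells (175 CPM) stood above the WT astrocyte-like cells (115 CPM), the reverse of the summed order.

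Synm was highest in cluster 9 of WT at 273 CPM (229 to 324), above the astrocyte-like cells at 194 CPM (178 to 211). In Nuc1 the astrocyte-like cells led at 118 CPM (111 to 125), and cluster 9 had 49.2 CPM (33.4 to 69.9). The cluster 9 values came from 132 UMIs in 13 of 23 WT cells and 31 UMIs in 11 of 31 Nuc1 cells, and no WT cell held over 31 UMIs. By the median over single cells the astrocyte-like cells (147 CPM) led in WT as well, with 92.1 CPM in cluster 9.

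Des was nearly absent. It had 8 UMIs in 8 of 1963 WT cells and 27 UMIs in 18 of 1782 Nuc1 cells, all of them in collagen-rich clusters. The astrocyte-like cells had 0 Des UMIs in both libraries, where 3 UMIs would be 1.08 CPM in WT and 0.341 CPM in Nuc1. Muscle markers were close to absent there too: 8 striated muscle genes summed to 8.63 CPM in WT and 4.32 CPM in Nuc1, with 5 and 4 of them at 0. The smooth muscle gene Tagln, by contrast, was at 732 and 727 CPM in these cells.

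The members were compared between Nuc1 and WT within the astrocyte-like cells. Gfap was higher in Nuc1, Nes and Synm were lower, and Vim differed little. The Gfap level was 1.40-fold higher in Nuc1 than in WT (1.37 to 1.42). The Vim level was 0.961 of that in WT (0.952 to 0.969). Nes was at 0.751 of its WT level (0.681 to 0.830) and Synm at 0.609 (0.549 to 0.677). Of the 4 members measured here 0 passed 2-fold, while 5.72% of 7548 genes with at least 100 UMIs did. Des could not be compared.

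The median log2 ratio of the 7548 genes was -0.11. Against it, Gfap stood at 0.59, Vim at 0.05, Nes at -0.30 and Synm at -0.61, so that the direction of Vim turned when the libraries were scaled to equal medians. Gfap had a higher ratio than 91.8% of these genes and Synm than 7.60%, with Vim at 55.3% and Nes at 21.0%.

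Mitochondrial RNA, the share of cells with a proliferation gene UMI and further marker lists moved with this comparison. Mitochondrial genes took a median of 13.0% of UMIs in WT astrocyte-like cells and 10.9% in Nuc1. Of the WT cells 15 of 106, and of the Nuc1 cells 147 of 345, had at most 10%. Within WT, cells at most 10% had less Gfap than the others, 5023 against 7197 CPM. Within Nuc1 they had more, 10710 against 8701 CPM. Among the cells at most 10%, Gfap had a log2 ratio (Nuc1 over WT) of 1.09 and Nes of -1.13, resting on 15 WT cells. When all cells over 10% were removed before clustering, it was 1.79 for Gfap and 0.23 for Vim, and 12 of the 27 WT cells in that astrocyte-like cluster came from cluster 9. The 15 astrocyte markers summed to 38561 CPM in WT and 47727 CPM in Nuc1. Of these, S100b was 1.49-fold, Mt3 1.30-fold and Fabp7 1.15-fold higher in Nuc1, while Aqp4 was at 0.927 of WT. Hspb1, also on that list, stood at 2338 and 4675 CPM. The 4 neural progenitor markers summed to 761 CPM in WT and 443 CPM in Nuc1, led by Sox2 at 514 and 292 CPM. The 9 motile cilia markers in the files summed to 63.3 and 129.7 CPM, led by Dynlrb2 at 25.5 and 42.6 CPM. The 7 dividing markers summed to 285 and 47.6 CPM. Cells with a UMI of the proliferation genes Mki67 or Top2a made up 18 of 106 WT and 22 of 345 Nuc1 cells, and without them the log2 ratio of Gfap was 0.40. The part of mitochondrial RNA and of these marker lists in the differences was not tested beyond these values.

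The 10 listed fibroblast genes summed to 4682 CPM in WT and 2849 CPM in Nuc1 astrocyte-like cells, and 0 of the 10 were at 0. Most of the sum was Sparc, at 2477 and 1822 CPM, which astrocytes are also known to make, while Col1a1 was at 250.3 and 159 CPM. Leaving out the cells with over 300 CPM of Col1a1, Col3a1, Dcn and Lum kept 89 WT and 283 Nuc1 cells and gave a log2 ratio of 0.56 for Gfap and -0.07 for Vim. The 13 macrophage and microglia markers summed to 14.7 CPM in WT, where 8 were at 0, and to 13.9 CPM in Nuc1, where 4 were at 0. Cd14 led at 10.8 and 9.10 CPM, and Csf1r, Cx3cr1, Ptprc and Mrc1 were at 0 in both.

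**Figure D2:**
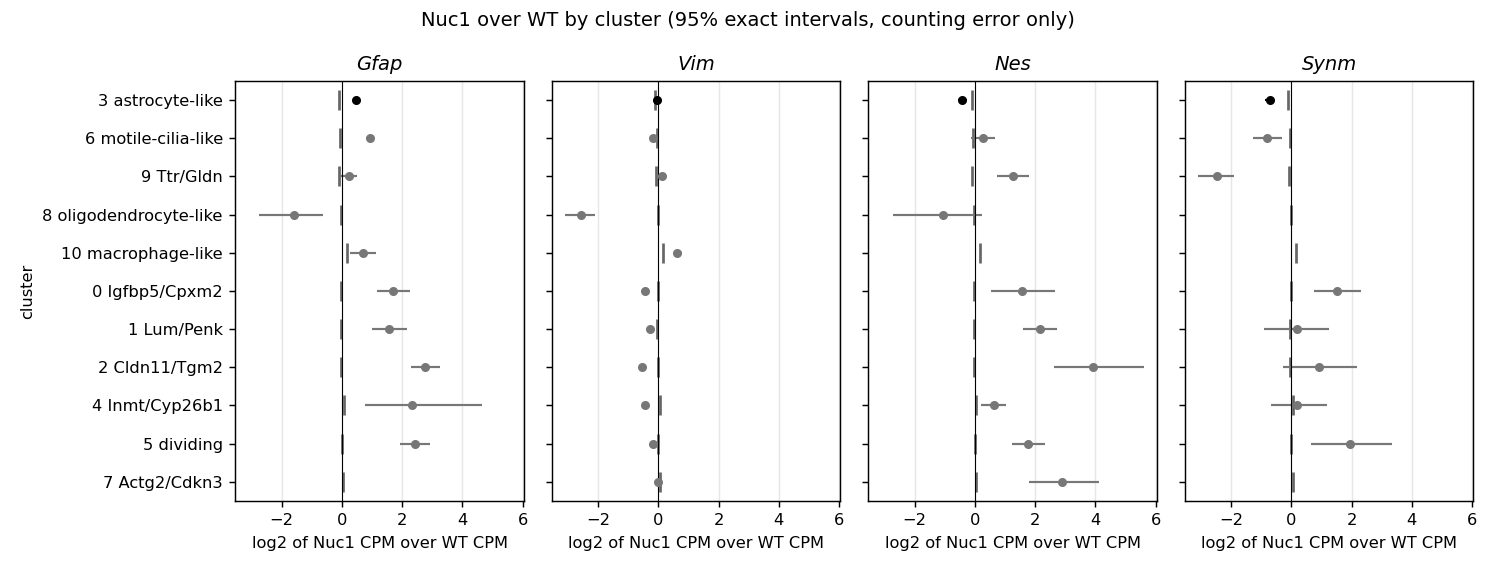
Log2 of Nuc1 CPM over WT CPM for 4 members in each cluster with 95% exact intervals (points, at least 20 UMIs in both libraries together; astrocyte-like cells in black) and the median of all genes with at least 100 UMIs in that cluster (grey bars). In astrocyte-like cells Gfap lies at 0.48, Vim at -0.06 (0.05 against the median of all genes), Nes at -0.41 and Synm at -0.71, while in collagen-rich clusters the Gfap and Nes points lie to the right of 0.

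Gfap was set against Vim and Nes within the astrocyte-like cells. There were 0.291 Gfap UMIs for each Vim UMI in WT (0.286 to 0.296) and 0.422 in Nuc1 (0.419 to 0.426). For each Nes UMI there were 34.0 Gfap UMIs in WT (31.3 to 37.0) and 63.1 in Nuc1 (59.8 to 66.7). Vim thus remained the more abundant transcript of the pair in both libraries, and the balance of counts was shifted towards Gfap in Nuc1. Between Nes and Synm the log2 ratio was 0.08 in WT (-0.09 to 0.25) and 0.38 in Nuc1 (0.26 to 0.50). The same Gfap to Vim ratio was 0.0878 and 0.188 in the motile-cilia-like cells, and 0.0313 and 0.0333 in cluster 9.

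Single cells spread widely. In WT the cell median of Gfap was 6082 CPM, with the tenth percentile at 1793 and the ninetieth at 12950 CPM. In Nuc1 the median was 9174 CPM, with percentiles of 2511 and 16708 CPM, so the libraries overlapped over most of their range. Vim had cell medians of 24245 CPM in WT and 21554 CPM in Nuc1. Nes was found in 85 of 106 WT cells (80.2%) and 264 of 345 Nuc1 cells (76.5%), and Synm in 95 (89.6%) and 281 (81.4%). Thinned to 5000 UMIs a cell, the Nes shares were 45.7% of 105 WT cells and 42.4% of 340 Nuc1 cells, and the Synm shares 54.3% and 44.1%.

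From cell to cell, Gfap showed no clear relation to Vim or Nes. In cells thinned to 10000 UMIs, the Spearman coefficient of Gfap with Vim was -0.17 over 104 WT cells and 0.07 over 323 Nuc1 cells. With Nes it was -0.16 and -0.04. Such weak values in sparse counts are no finding, and the cells of a library share their source and free RNA. For comparison, the coefficient of Gfap with S100b, a calcium-binding protein gene of astrocytes, was 0.51 in WT and 0.32 in Nuc1, and with the metallothionein gene Mt3 it was 0.43 and 0.32. The value with Vim depended on the choice of cells. Over cells picked by at least 4 of 6 astrocyte markers with no clustering, it was 0.39 in WT, where the sign turned, and 0.45 in Nuc1. That choice took 152 WT and 522 Nuc1 cells, against 106 and 345 in the cluster, so it also held cells from outside it.

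**Figure D3:**
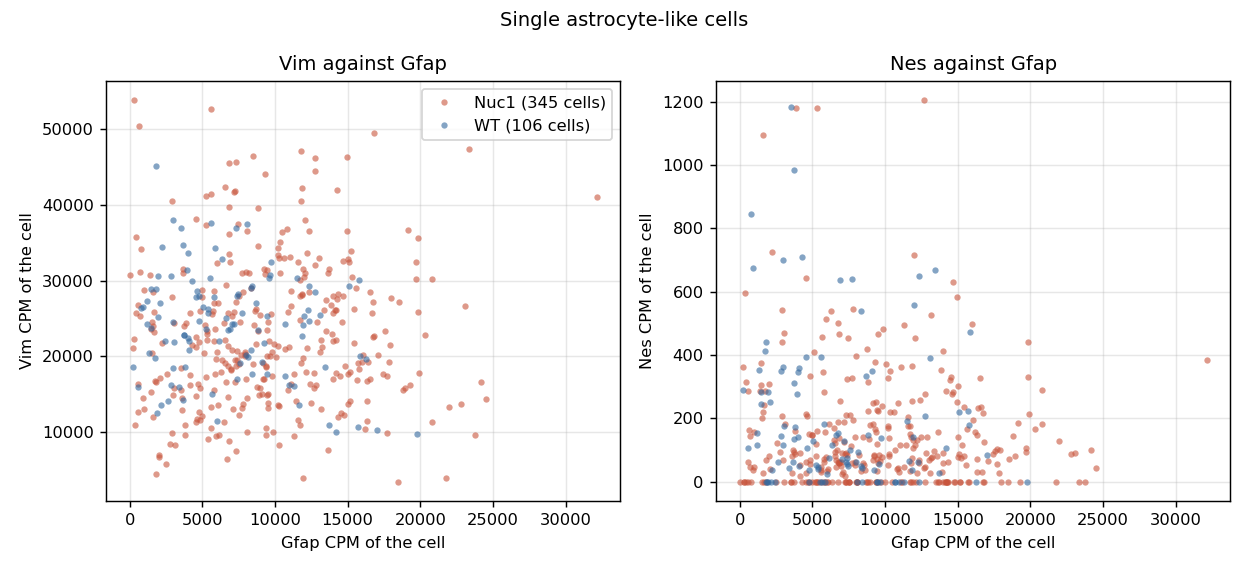
Each point is 1 astrocyte-like cell, with its Gfap CPM on the horizontal axis and its Vim CPM (left) or Nes CPM (right) on the vertical axis, at full depth; WT is blue (106 cells) and Nuc1 red (345 cells). The 2 libraries overlap, with cell medians of 6082 and 9174 CPM for Gfap, and neither panel shows a clear trend.

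Cells were also split by their own Gfap level at 3000 and 10000 CPM, limits chosen after the values were seen, so the Gfap levels of the ranges are no result. The low, middle and high ranges held 23, 59 and 24 WT cells and 40, 156 and 149 Nuc1 cells. Within 10% of the upper limit lay 10 WT and 44 Nuc1 cells. The summed Nes level was lower in the high than in the low range, at 174 against 274 CPM in WT and 150 against 213 CPM in Nuc1. The log2 ratios were -0.65 (-1.01 to -0.30) and -0.51 (-0.74 to -0.27). In the low range of WT, 65 of the 167 Nes UMIs lay in 2 cells, and without them it stood at 194 CPM, a log2 ratio of -0.16 (-0.56 to 0.24). Leaving out the 2 cells with most Nes from each range gave -0.53 (-0.97 to -0.09) in WT and -0.44 (-0.69 to -0.18) in Nuc1. Vim took opposite signs, with log2 ratios of -0.29 (-0.32 to -0.26) in WT and 0.11 (0.09 to 0.13) in Nuc1.

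S100b, Mt3 and Fabp7, a fatty acid-binding protein gene of radial glia and astrocytes, were higher in high-Gfap cells of both libraries. For S100b the log2 ratio of high over low range was 0.83 in WT and 0.70 in Nuc1, for Mt3 0.78 and 0.59, and for Fabp7 0.52 and 0.48. Aqp4 differed more in Nuc1, at 0.76 against 0.16 in WT. Synm was higher in the high range of WT by 0.58 (0.19 to 0.97), with 0.02 (-0.26 to 0.32) in Nuc1. Without the 2 WT cells with most Synm in the high range it was 0.32 (-0.10 to 0.73), and without the 2 with most Synm in each range 0.68 (0.23 to 1.15). Mki67, a gene of dividing cells, was at 169 CPM in the low range and 0 in the high range of WT, and at 36.0 and 3.08 CPM in Nuc1.

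Cells with a Mki67 or Top2a UMI had less Gfap than the other astrocyte-like cells. In WT the levels were 4095 CPM in 18 such cells and 7509 CPM in 88 others. In Nuc1 they were 6931 CPM in 22 cells and 9922 CPM in 323. The log2 ratios were -0.87 (-0.94 to -0.81) and -0.52 (-0.56 to -0.47). Vim differed by 0.08 in WT and -0.21 in Nuc1 on the same scale, and Nes by 0.31 (0.00 to 0.61) and 0.35 (0.08 to 0.62). The Nes values rested on few cells. Of the 112 Nes UMIs of the 18 WT cells, 38 lay in 1 cell, without which the ratio was -0.14 (-0.51 to 0.22). Without the Nuc1 cell with most Nes it was 0.20 (-0.09 to 0.48). Synm was lower in the 18 WT cells, with a log2 ratio of -1.19 (-1.67 to -0.74), and stood at 0.20 (-0.13 to 0.51) in Nuc1. All these values compare cells within 1 library and carry counting error only.

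**Figure D4:**
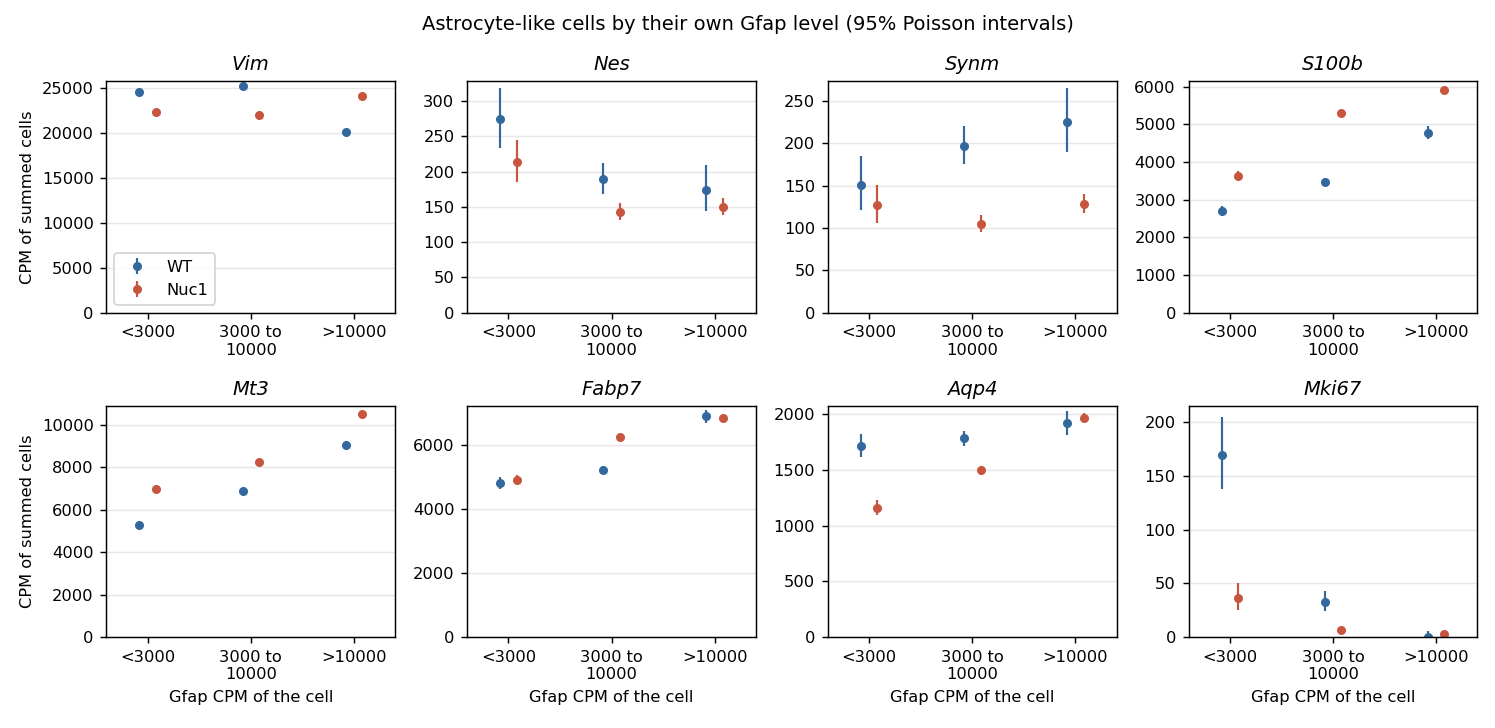
CPM of summed astrocyte-like cells whose own Gfap level was below 3000, 3000 to 10000 or above 10000 CPM, for Vim, Nes, Synm and 5 other genes, with 95% Poisson intervals (WT blue, Nuc1 red). S100b, Mt3 and Fabp7 are higher in the high range of both libraries, and Mki67 is lower, from 169 to 0 CPM in WT and from 36.0 to 3.08 CPM in Nuc1.

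Outside the astrocyte-like cells, Nes, Gfap and Synm had higher summed levels in Nuc1 collagen-rich cells and Vim a lower one. Of the 4 members with at least 100 UMIs, these 3 were past 2-fold higher, as were 4.48% of 10342 genes, and 8.28% were past 2-fold in either direction. Nes stood at 5.76 CPM in WT (168 UMIs, 1745 cells) and 42.5 CPM in Nuc1 (966 UMIs, 1265 cells), a 7.39-fold difference (6.26 to 8.75). Synm stood at 2.85 and 8.85 CPM, a log2 ratio of 1.64 (1.26 to 2.02). Within cluster 4, which held 54 WT and 368 Nuc1 cells, Synm stood at 16.9 and 19.4 CPM, 1.15-fold (0.632 to 2.29). The Synm intervals of clusters 1, 2, 4 and 7 included no difference, while those of clusters 0 and 5 lay above it. In cluster 5 of Nuc1, 17 of 18 Synm UMIs lay in 1 cell. Without cluster 4 the collagen-rich Synm ratio was 2.12-fold (1.54 to 2.94). Vim stood at 7265 and 5799 CPM, or 0.798 of WT (0.793 to 0.804). Des had 0.274 and 1.19 CPM. Marker lists moved with this comparison. The fibroblast list was lower in Nuc1 in every collagen-rich cluster, at 17766 and 10290 CPM in cluster 0 and 20140 and 16741 CPM in cluster 4. The mural and smooth muscle list was also lower in each, at 4126 and 1981 CPM in cluster 1. The part of these lists in the differences was not tested.

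Much of the Nes in these cells lay in cluster 4, led by Inmt and Cyp26b1, an enzyme gene of retinoic acid breakdown. This cluster held 54 of the WT and 368 of the Nuc1 cells, and 54 of the 168 WT and 670 of the 966 Nuc1 Nes UMIs of collagen-rich cells. Its Nes level was 76.2 CPM in WT (57.2 to 99.4) and 117 CPM in Nuc1 (109 to 127), a 1.54-fold difference (1.17 to 2.07). A Nes UMI was found in 231 of its 368 Nuc1 cells (62.8%), against 1 of 22 Nuc1 macrophage-like cells (4.55%), whose median depth was 1807.5 UMIs against 14545. At an equal 5000 UMIs a cell, a Nes UMI was found in 32.4% of Nuc1 cells of cluster 4 and 3.09% of those of cluster 0. In the other 5 collagen-rich clusters together, Nes was 4.35-fold higher in Nuc1 (3.49 to 5.44), at 4.01 against 17.4 CPM. By cluster this difference ran from 2.94-fold in cluster 0 to 15.2-fold in cluster 2, the latter against 5 WT UMIs. Over all cells of a library Nes was at 27.3 CPM in WT and 82.5 CPM in Nuc1, 3.02-fold higher (2.80 to 3.25). Synm over all cells was 1.73-fold higher (1.58 to 1.89). The part of free RNA in the Nes and Synm values of collagen-rich cells was not tested.

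Gfap in collagen-rich cells was 6.58 CPM in WT (192 UMIs) and 29.6 CPM in Nuc1 (673 UMIs), 4.50-fold higher (3.83 to 5.31). Over all cells of a library, where the astrocyte-like share differed, Gfap was 608 CPM in WT and 2663 CPM in Nuc1, 4.38-fold higher (4.32 to 4.45). In the collagen-rich cells Fabp7 was 4.45-fold higher (3.81 to 5.21) and Mt3 3.93-fold higher (3.49 to 4.44), beside Aqp4 at 2.78-fold and S100b at 1.56-fold. Gfap UMIs per Fabp7 UMI numbered 0.923 and 0.935 in collagen-rich cells of WT and Nuc1, against 1.26 and 1.52 in the astrocyte-like cells. A Gfap UMI was seen in 7.56% of WT and 23.2% of Nuc1 collagen-rich cells, at median depths of 13721 and 15166 UMIs. In the macrophage-like cells, which should lack the gene, it was seen in 3 of 22 WT cells (13.6%) and 5 of 22 Nuc1 cells (22.7%), at 8556 and 1807.5 UMIs. The exact binomial intervals of the latter, 2.91% to 34.9% and 7.82% to 45.4%, hold the collagen-rich shares, but 22 cells and unequal depths leave this comparison too coarse to tell free RNA from expression, which was not tested. In cluster 2 of Nuc1, 161 of 229 Gfap UMIs lay in 1 cell, and without it the level fell from 57.3 to 17.2 CPM.

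Few cells also carried the Gfap of the macrophage-like cluster. Of its Gfap UMIs, 137 of 139 in WT and 70 of 74 in Nuc1 came from 1 cell each. These cells also carried 29491 and 34747 CPM of the astrocyte marker list, beside 11619 and 2404 CPM of the macrophage list. Without them the cluster had 10.2 CPM of Gfap in WT and 65.8 CPM in Nuc1. Vim was present in 21 of 22 WT and 22 of 22 Nuc1 cells, at 4618 and 7135 CPM, or 3357 and 5803 CPM without them. The macrophage list summed to 21153 and 6331 CPM in the whole cluster, and the median mitochondrial share was 7.12% in WT and 0.266% in Nuc1.

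In the motile-cilia-like cells Gfap was 1.90-fold higher in Nuc1 (1.74 to 2.07), and Synm was at 0.572 of WT (0.412 to 0.809). Nes, at 145 and 174 CPM, had a log2 ratio of 0.26 (-0.13 to 0.67). The astrocyte marker list summed to 19972 and 24790 CPM in these cells. Their mural list summed to 620 and 179 CPM (led by Tagln) and their neural progenitor list to 701 and 442 CPM (led by Sox2). The part of these lists in the Gfap and Synm values was not tested. In WT, Mt3 was at 6423 CPM there against 7031 CPM in astrocyte-like cells, and Fabp7 at 1295 against 5528 CPM. In cluster 9, Nes was higher in Nuc1, with a log2 ratio of 1.26 (0.74 to 1.81), and Synm was at 0.180 of WT (0.118 to 0.268). Its 23 WT and 31 Nuc1 cells also differed in marker sums, with the fibroblast list at 12893 and 8924 CPM (led by Sparc), the mural list at 4624 and 2063 CPM (led by Tagln) and the motile cilia list at 93.2 and 389 CPM (led by Dynlrb2), and the part of these in the Nes and Synm values was not tested. In the oligodendrocyte-lineage-like cells, Gfap and Vim were lower in Nuc1, at 84.3 against 254 CPM and 337 against 2011 CPM. These 2 were past 2-fold lower, as were 6.53% of 1593 genes, with 10 Nuc1 cells behind the values. Without the cell with most Vim of each library the levels were 42.2 against 247 CPM for Gfap and 116 against 1005 CPM for Vim. These cells carried 13737 CPM of the astrocyte marker list in Nuc1 and 15250 CPM in WT, beside 3830 and 5143 CPM of the oligodendrocyte lineage list. Over the whole cluster the astrocyte list summed to 8727 CPM in Nuc1 and 7626 CPM in WT, and without these cells to 8092 and 7100 CPM. The oligodendrocyte lineage list of the cluster summed to 9139 CPM in Nuc1 and 14156 CPM in WT. The fibroblast list summed to 375 and 689 CPM, the mural list to 9.36 and 296 CPM, and the neuron list to 1002 and 235 CPM. The part of these lists in the Gfap and Vim values was not tested.

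The proteins that work with these filaments were described from lists of 50 genes, of which 49 were in the files and 24 had at least 100 UMIs in the astrocyte-like cells. Of the 24, 0 were past 2-fold higher in Nuc1 and 3 were past 2-fold lower, against 1.83% and 3.9% of all genes. The median log2 ratio of the 24 was -0.27, against -0.11 for all genes. With a minimum of 20 UMIs, 6 of 29 were past 2-fold in either direction, against 11.2%: the same 3 and the lamin gene Lmnb1 lower, and Krt18 and Ppl higher. Lmnb1 lay at the limit, with 21 and 33 UMIs and a log2 ratio of -1.01 (-1.84 to -0.15).

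Among kinases that phosphorylate filament proteins, Cdk1, which drives entry into mitosis, was at 67.3 CPM in WT and 11.9 CPM in Nuc1. Its log2 ratio was -2.49 (-2.85 to -2.14). Aurkb, a mitotic kinase that acts on vimentin during cell division, was at 17.6 and 5.80 CPM, with -1.60 (-2.20 to -1.01). Cells with a Mki67 or Top2a UMI were 18 of 106 in WT and 22 of 345 in Nuc1, and the share of such UMIs from free RNA was not measured. Pak1 stood at -0.93, Rock1 at -0.44 and Rock2 at -0.27. The kinase list had a median of -0.44.

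The third gene past 2-fold lower was Bfsp2, a filament gene known from the lens, at 15.5 and 7.63 CPM. Of the 18 other cytoplasmic filament genes listed, Bfsp2, Krt8 and Krt10 reached 100 UMIs. Krt8 was at 43.9 CPM in WT and 42.9 CPM in Nuc1. Neurofilament genes were nearly absent from the astrocyte-like cells, with 0 Nefl UMIs in both libraries. Lmna, a nuclear lamin gene, stood at 256 and 203 CPM.

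The linkers tie filaments to other structures. Plec, encoding plectin, was at 417 CPM in WT and 407 CPM in Nuc1. Dst was at 363 and 392 CPM, and Macf1 at 393 and 331 CPM. Dmd and Dag1, of the dystrophin complex at the endfoot, had log2 ratios of -0.28 (-0.46 to -0.10) and -0.05 (-0.17 to 0.07). Of 7 linkers with at least 100 UMIs, 0 passed 2-fold in either direction, and the list's median was -0.25. Ppl, the periplakin gene, was below that minimum, with 5 UMIs in WT and 65 in Nuc1 and a log2 ratio of 2.04 (0.74 to 3.71). Of 4 protease and turnover genes measured 0 passed it, with a median of -0.04.

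The 2 small heat shock chaperones of filaments stood on opposite sides. Hspb1 was at 2338 CPM in WT and 4675 CPM in Nuc1, and its log2 ratio (0.96 to 1.04) spanned the 2-fold limit. Cryab, the αB-crystallin gene, was at 742 and 425 CPM, a ratio of -0.80 (-0.88 to -0.73). Neither was counted as past 2-fold.

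**Figure D5:**
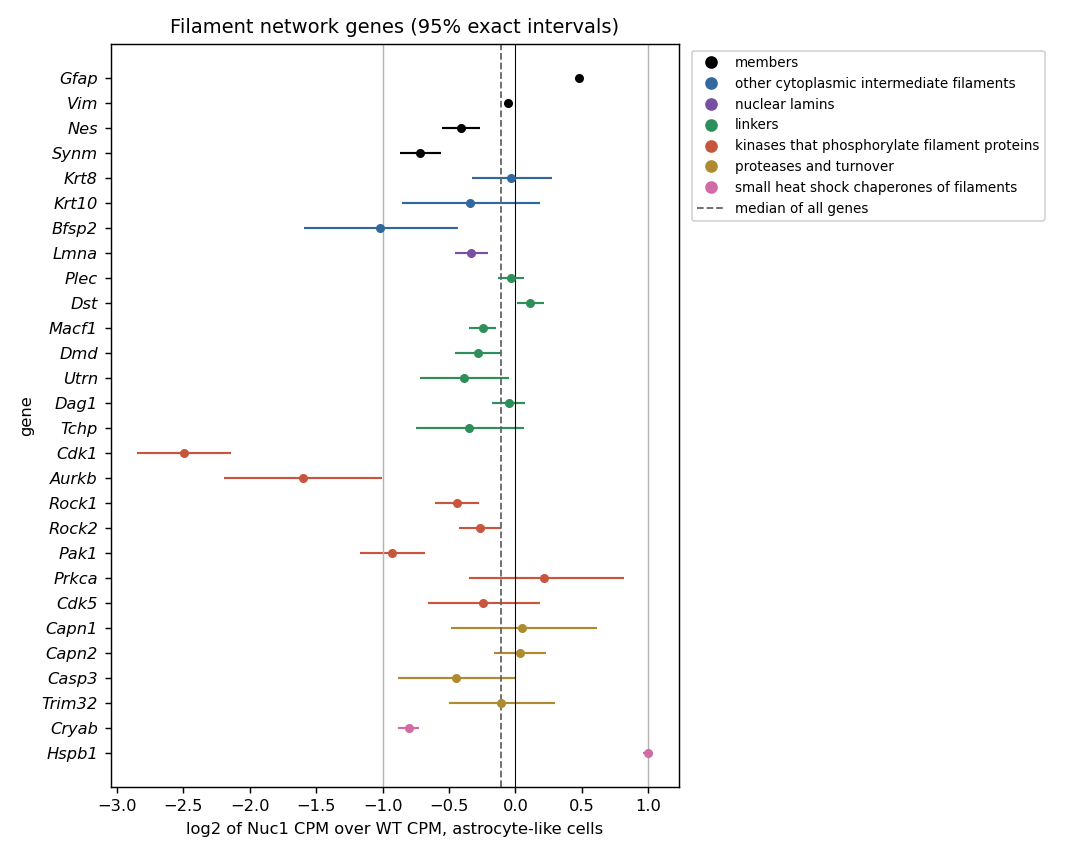
Log2 of Nuc1 CPM over WT CPM in astrocyte-like cells for 4 members (black) and the 24 listed filament network genes with at least 100 UMIs, coloured by list, with 95% exact intervals; grey lines mark 2-fold and the dashed line the median of all genes at -0.11. Cdk1, Aurkb and Bfsp2 lie beyond the 2-fold line on the left, and Hspb1 stands on the 2-fold line on the right.

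In the collagen-rich cells 34 of the listed genes had at least 100 UMIs. There, 4 were past 2-fold higher in Nuc1 (Ina, Krt7, Bfsp2 and Ppl), against 4.48% of genes, and 6 were lower (Krt5, Krt8, Krt15, Krt18, Evpl and Cryab), against 3.8%. The lists' median was -0.12, against 0.02 for all genes. With a minimum of 20 UMIs, 12 of 43 were past 2-fold, against 12.0%. Krt8, an epithelial keratin gene, stood at 399 CPM in WT and 174 CPM in Nuc1 from 11625 and 3943 UMIs. Krt18, which encodes the usual partner of keratin 8, was at 7.95 and 0.749 CPM.

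The genes whose pattern was most like each member's were found over 20 profiles of cluster and library, among 6445 genes, by Pearson's r of log2(CPM + 20). For Gfap these were Mt3 (0.97), Fabp7 (0.97) and Aqp4 (0.97). For Vim they were Cd48 (0.88), Nqo1 (0.86) and Hspb1 (0.85). For Nes they were Cxxc5 (0.91), Pcgf5 (0.90) and Tubb2a (0.90), and for Synm Arvcf (0.94), Acyp2 (0.94) and Pfkfb3 (0.94). Among the members, Gfap correlated at 0.77 with Synm, 0.71 with Nes and 0.53 with Vim. For Des the 3 genes were Uri1, Jak1 and Serpinb9, on 8 WT and 27 Nuc1 UMIs. These correlations are descriptions: the profiles share 2 libraries and their free RNA.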

How the data were processed

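The deposited files hold raw UMI counts by gene and barcode for both 3′ droplet libraries, without normalization. The submitters' processing notes name Cell Ranger 3.1.0, STAR 2.7 and Seurat 3.1.0 and 3.1.1. The genome build is not given in the sources used here. The depth was 34517542 UMIs in WT and 35794685 in Nuc1, and sets the width of the intervals.

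Barcodes were kept from 500 genes upward and up to 20% of UMIs from 13 mitochondrial genes. Scrublet in scanpy 1.11.5, at an expected 2%, marked 5 of 1968 WT and 11 of 1793 Nuc1 cells, which were removed. This is fewer than expected, so doublets can remain. Libraries were integrated by anchors in Seurat 5.3.0 (R 4.3.3), with 2000 variable genes less the 5 members, 30 principal components and resolution 0.5. Leading genes were ranked by fold over the mean of other clusters with 20 CPM added. Ratios were of CPM with nothing added. Counts were summed by cluster and library, since cells are not replicates. Intervals used scipy 1.17.1, and were checked on simulated data. Cells with under 10000 UMIs were left out of thinned correlations (2 WT, 22 Nuc1).

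The members, lists and markers were chosen with earlier results of these data known. Genes named were the 5 members, listed genes with at least 100 UMIs in the cells described, markers, leading genes and the 3 genes most like each member, and, chosen after their values were seen, Nefl, Lmnb1, Ppl and Krt18 in astrocyte-like cells. Alternatives covered filters, doublets, integration, resolution, thinning, scaling, a marker-based choice of cells and settings chosen after seeing the data.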

Additional observations from a re-analysis of the deposited data

Results flagged for a closer look

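In each case below the ratio of Nuc1 over WT took opposite signs in 2 groups of cells, with both counting intervals off 0. The difference between the groups was not tested, because each genotype has 1 library.

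Gfap had a log2 ratio of 0.48 in astrocyte-like cells and -1.59 in oligodendrocyte-lineage-like cells, which held 200 Gfap UMIs in WT and 9 in Nuc1. Without the cell of each library with most Vim, which carried 15250 CPM of the astrocyte marker list in WT and 13737 CPM in Nuc1, the latter value was -2.55 (-4.44 to -1.17). Vim had -0.06 in astrocyte-like cells, 0.13 in cluster 9 and 0.63 in macrophage-like cells, whose median depth was 8556 UMIs in WT and 1807.5 in Nuc1, and whose median mitochondrial share was 7.12% and 0.266%. The macrophage-like value was 0.79 (0.60 to 0.98) without the cell of each library with most Gfap. Against the median ratio of all genes the 3 Vim values were 0.05, 0.21 and 0.47, with no opposite sign. Nes had -0.41 in astrocyte-like cells, 2.88 in collagen-rich cells and 1.26 in cluster 9. In the collagen-rich cells without cluster 4 the Nes value was 2.12. Synm had -0.71 in astrocyte-like cells and 1.64 in collagen-rich cells, or 1.09 without cluster 4. Within cluster 4 alone the Synm value was 0.20 (-0.66 to 1.19).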

How the results depend on the processing

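With 1 library of each genotype, the samples share too few replicate numbers for a block. No paired analysis was possible because there is 1 library per genotype. Of 170 recomputed values under 19 alternative settings, 107 stayed within the counting interval of the reported value, 59 moved further and 4 reversed. In place of the interval, the limit was 0.1 for a Spearman coefficient and 1.5 times for a count of genes. The 4 are the log2 ratios called reversed below. A Spearman coefficient that changed sign was not counted as reversed. Values below are log2 ratios, Nuc1 over WT or Gfap over a partner, in astrocyte-like cells, and the cause of each shift was not tested.

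Clustering only cells with at most 10% mitochondrial UMIs gave 1.79 for Gfap and a reversed 0.23 for Vim, Gfap over Vim of -2.87 (WT) and -1.30 (Nuc1), and Gfap over Nes of 3.61 and 5.81. The Spearman coefficient of Gfap with Vim was then 0.74 (WT) and 0.28 (Nuc1), and with Nes 0.42 (WT). Merging without integration gave 0.41 for Gfap and, in WT, -1.70 over Vim and 5.23 over Nes. Resolution 0.2, which added the motile-cilia-like cells, gave 0.39 for Gfap, -0.12 for Vim, -1.88 (WT) and -1.36 (Nuc1) for Gfap over Vim, 5.69 over Nes in Nuc1, and a coefficient with Vim of 0.090 and 0.36. Taking cells by 4 of 6 markers gave -0.091 for Vim, -0.91 for Synm, -2.01 and -1.45 for Gfap over Vim, 4.79 and 5.55 over Nes, and coefficients of 0.39 and 0.45 with Vim and -0.0035 with Nes in WT.

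Without cells over 300 CPM of fibroblast genes the values were 0.56 for Gfap, -0.074 for Vim and, in WT, -1.88 over Vim and 4.93 over Nes. Thinning to 10000 UMIs gave 0.51 for Gfap and, in WT, -1.82 and 5.22. Scaling to equal medians gave 0.59 for Gfap and a reversed 0.050 for Vim. By the median over cells, astrocyte-like over the highest other cluster, WT gave 3.66 for Gfap, 0.69 for Vim, a reversed -0.61 for Nes (0.49 summed) and a reversed 0.55 for Synm (-0.50 summed), and Nuc1 gave 2.65, 0.86 and 1.69 for Gfap, Vim and Synm. At resolution 1.0 the Nuc1 value of Vim was 0.71. With at least 20 UMIs, 6 network genes were past 2-fold in place of 3, or 5 (without Lmnb1) with 1 UMI added to each gene over both libraries, a setting added after seeing the data.

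A further pair of settings, chosen after seeing the data, shifted values. Keeping the clusters but only cells with at most 10% mitochondrial UMIs gave 1.09, -0.17, -1.13 and -0.44 for Gfap, Vim, Nes and Synm, the last with an interval of -0.86 to 0.02. Gfap over Vim was then -2.45 (WT) and -1.19 (Nuc1), Gfap over Nes 3.85 and 6.07, and the coefficient in WT -0.030 with Vim and 0.057 with Nes. Without cells holding Mki67 or Top2a the values were 0.40 for Gfap, -0.030 for Vim, -0.87 for Synm, -1.66 and -1.22 for Gfap over Vim, and 5.26 over Nes in WT. In all settings run, the value for Gfap was above 0 and those for Nes and Synm below 0, though the Synm interval at most 10% mitochondrial UMIs within the kept clusters included 0. Leaving out the cells with most UMIs of a member, also chosen after seeing the data, is given for Nes and Synm beside their values.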
